A study of Mus musculus with 12 samples.

Results

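The genes described are 10 of the 47517 genes in the count table: Fn1, Postn, Tnc, Sparc, Thbs1, Thbs2, Fbn1, Eln, Lox and Ctgf. They were chosen by name as genes for non-collagen glycoproteins of the extracellular matrix, together with the enzyme that cross-links matrix fibres, and all 10 were followed in all 12 libraries. RNA came from mouse embryonic fibroblasts (strain C57BL/6, from E13.5 embryos) that had been immortalised with the SV40 large T antigen. Both Ssb1 (gene symbol Nabp2) and Ssb2 (gene symbol Nabp1), which encode single-stranded DNA-binding proteins, carry floxed alleles in every group, so the controls hold the same alleles. Cre-negative cells are labelled Cre -ve with Ssb1 Fl/Fl and Ssb2 Fl/Fl. Cre-positive cells carry RosaCreERT2, a Cre recombinase that enters the nucleus when 4-hydroxytamoxifen (4-OHT) binds it. Their genotype label gives Ssb1 as Fl/F and Ssb2 as Fl/Fl, while the treatment protocol gives both as floxed on both alleles. Cells of each genotype were left untreated, given ethanol (the control for 4-OHT) for 5 days, or given 4-OHT for 5 days, which makes 6 groups of 2 libraries. The labels give no day for untreated cells, so against them a treatment and 5 days of culture cannot be told apart. Libraries carry the numbers of their titles.

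The extracellular matrix is the protein mesh that fibroblasts secrete around themselves. Fibronectin forms the first fibrils, on which fibrillin microfibrils, elastin and collagens are laid down, and lysyl oxidase cross-links collagen and elastin. Thrombospondins, tenascin C, periostin, SPARC and connective tissue growth factor are matricellular proteins, which sit in the matrix and act on cell receptors, proteases and growth factors more than they bear load. Many of these genes are known to rise in activated fibroblasts and in wound repair, and transforming growth factor beta (TGF-beta) and the YAP and TAZ cofactors are known to act on several of them.

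Library totals ran from 20201855 to 36367012 counts. Levels are given in CPM, the usual scale of counts normalised to library size, with library totals adjusted by trimmed means of M values. The 2 libraries of each group differed by more than counting noise (chi-square per degree of freedom 2.37 to 4.60), so none was treated as a copy of another. The labels do not say that libraries came from separate cultures, nor how many embryos or lines stand behind a genotype. P-values therefore reflect only how far libraries of a group lay apart, a spread that could be technical, and genotype and cell line cannot be told apart. The RNA of both targeted genes fell with 4-OHT in Cre-positive cells. Nabp1 was at 3.40 and 3.96 CPM with 4-OHT and at 14.5 and 15.9 CPM with ethanol (log2 -2.06, SE 0.104, adjusted p = 7.51e-12 by edgeR). Nabp2 was at 4.84 and 5.09 CPM with 4-OHT and at 19.8 and 22.6 CPM with ethanol (log2 -2.10, SE 0.0942, adjusted p = 1.31e-12 by edgeR). The fibroblast markers (12 genes) summed to 7160 to 7640 CPM in Cre-positive and 5300 to 5940 CPM in Cre-negative libraries. Vim alone was at 3240 to 4130 CPM, but Thy1 (0 to 4 counts) and Fap (0 to 12 counts), which also mark fibroblasts, were at or near 0. Epithelial (1.43 to 7.23 CPM), endothelial (0.393 to 1.53 CPM), haematopoietic (2.86 to 5.13 CPM) and skeletal muscle markers (0 to 0.297 CPM) summed to little in every library, with Hbb-bt and Myf5 at 0. Neural markers summed to 143 to 188 CPM. Genes on the opposite strand that overlap 5 of the 10 genes had at most 71 counts in any library, where those 5 had at least 1558. The antisense genes that overlap Lox (AC161119.1) and Eln (Gm30003) have no counts here to compare.

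RefSeq promoter windows on GRCm38.p6 were used for 5 of the 10 genes (Postn, Tnc, Sparc, Thbs2 and Fbn1). Any windows of the other genes were left out, so nothing is said of their motifs. The windows of Postn, Tnc and Thbs2 are shown because, of the 5 genes used, these had the widest range of levels over the 6 groups. Their products are all matricellular. Each line gives the 250 bases before the annotated start on the gene's strand, 5′ to 3′. Capitals mark TATATAA, a form of the TATA box.
Postn, chr3:54360857-54361106, plus strand: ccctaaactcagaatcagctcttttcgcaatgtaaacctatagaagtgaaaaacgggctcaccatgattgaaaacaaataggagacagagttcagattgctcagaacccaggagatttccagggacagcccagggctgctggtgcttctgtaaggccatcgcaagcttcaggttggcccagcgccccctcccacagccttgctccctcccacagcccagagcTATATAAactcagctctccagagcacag
Tnc, chr4:64046937-64047186, minus strand: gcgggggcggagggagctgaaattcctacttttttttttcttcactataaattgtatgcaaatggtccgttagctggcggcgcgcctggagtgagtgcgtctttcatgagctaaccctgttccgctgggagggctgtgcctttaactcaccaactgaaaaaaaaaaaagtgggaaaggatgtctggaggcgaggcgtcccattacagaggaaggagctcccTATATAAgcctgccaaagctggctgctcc
Thbs2, chr17:14694263-14694512, minus strand: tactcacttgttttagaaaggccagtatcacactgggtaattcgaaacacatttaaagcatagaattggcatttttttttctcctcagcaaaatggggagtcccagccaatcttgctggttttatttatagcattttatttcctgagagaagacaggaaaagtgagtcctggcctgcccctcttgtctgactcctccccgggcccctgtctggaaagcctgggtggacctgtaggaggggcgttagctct
TATATAA began 28 bases before the Postn start and 29 bases before the Tnc start, in both cases on the gene's own strand. A further window of each of these genes, at another annotated start, held no match. The motif was chosen after the sequences had been read. Over all 32851 windows of this length, 3.04% held TATATAA on either strand, and 0.578% held it on the gene's strand from 20 to 40 bases before the start. Neither TGANTCA, the AP-1 motif (6.75% of windows), nor GGAATG, the TEAD motif (12.6%), was found on either strand in any of the 7 windows of the 5 genes. A match here describes letters in a window and is no measure of binding.

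Per kilobase of annotated exons, which allows levels of different genes to be set side by side, Thbs1 was the highest of the 10 genes in every group. Thrombospondin 1, its product, is a secreted trimer that binds CD47 and integrins and can activate latent TGF-beta. Its level per length was 1990 CPM per kilobase in Cre-positive cells with 4-OHT and 791 in Cre-negative cells with 4-OHT. Lox and Sparc came next in Cre-positive cells with 4-OHT (359.0 and 350.0 CPM per kilobase), followed by Ctgf (217) and Postn (138). Fn1 (80.2), Fbn1 (38.6) and Tnc (37.6) formed the middle of the order in that group. Thbs2 (2.99) and Eln (0.0807) were at the bottom of the order in every group. The order of the other genes differed between cell lines: Fn1 per kilobase (124) was above Ctgf (72.6), and Postn (3.73) was below Tnc (9.05), in untreated Cre-negative cells. The 10 genes together took 1.81% to 1.82% of all counts in Cre-positive cells with 4-OHT, 1.51% to 1.66% with ethanol and 1.51% to 1.53% untreated. In Cre-negative cells they took 0.813% to 0.933%.

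**Figure D1:**
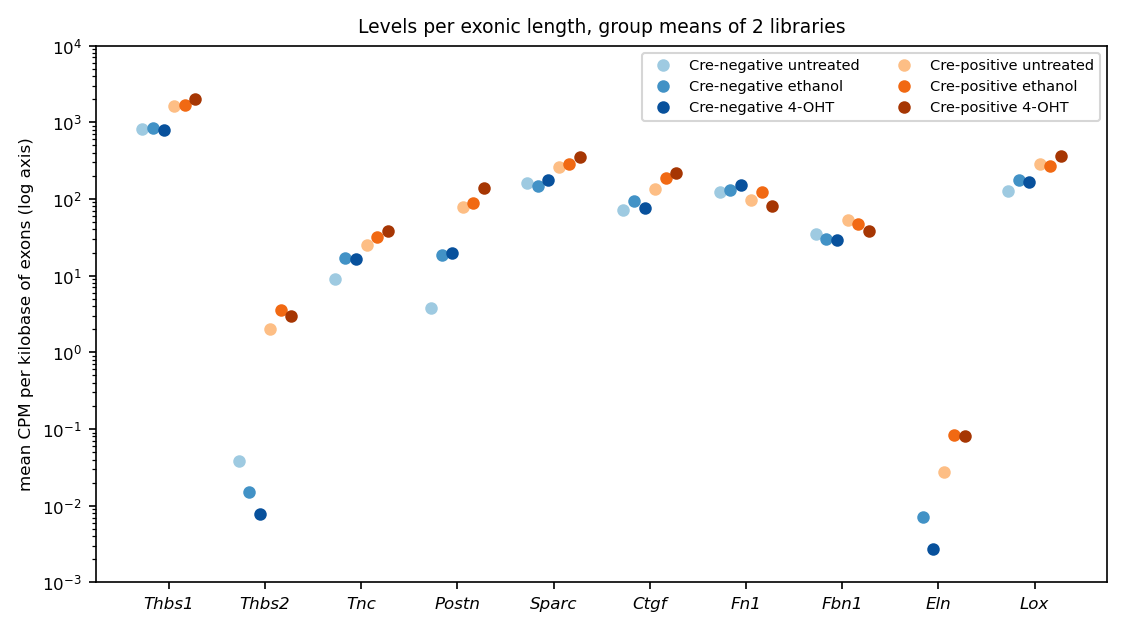
Mean level of each gene per kilobase of annotated exons (CPM per kilobase, log axis), 1 point per group of 2 libraries. Thbs1 sits at the top in every group and Eln at the bottom. The Cre-positive points lie above the Cre-negative points for every gene but Fn1, and the share of all genes that split this way was not counted. Untreated Cre-negative Eln, at 0, is not drawn.

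The main question was which of these genes differed after 5 days of 4-OHT in cells that carry the Cre. In Cre-positive cells 6 of the 10 genes were higher with 4-OHT than with ethanol: Postn, Lox, Sparc, Thbs1, Tnc and Ctgf. Fn1 and Fbn1 were lower, and neither Thbs2 nor Eln passed the test. Of all 17609 genes tested, 21.1% were called higher and 17.2% lower in this comparison, at an adjusted p below 0.05 in edgeR's quasi-likelihood test. The median log2 fold change was 0.209 over the 10 genes and 0.0262 over all genes tested. All 10 passed the filter on low counts, but Thbs2 passed it only through the Cre-positive groups. Eln passed it only through the Cre-positive groups given 4-OHT or ethanol. In Cre-negative cells 4-OHT against ethanol gave 1 higher gene (Sparc) and 1 lower gene (Ctgf), beside 3.33% and 2.65% of all genes. The effect of 4-OHT was tested for a difference between Cre-positive and Cre-negative cells, as an interaction on the log2 scale. It was higher in Cre-positive cells for 5 genes (Postn, Lox, Ctgf, Thbs1 and Tnc) and lower for 2 (Fn1 and Fbn1), beside 14.5% and 13.8% of all genes. Against untreated Cre-positive cells, a comparison that shares the 4-OHT libraries with the first, 8 genes were higher and 2 lower, beside 21.0% and 18.2% of all genes. The 8 include Eln, whose rise from untreated the filter favoured in advance. RNA from bulk cells cannot tell fewer cells of a type from less RNA per cell. Smooth muscle and pericyte markers (7 genes, most of the sum from Acta2) summed to 4310 to 4350 CPM in Cre-positive cells with 4-OHT and 3770 to 3870 CPM with ethanol. Of the 6 tested, 5 were higher and 0 lower, and Rgs5, which defines pericytes, had at most 6 counts. Adipocyte and cartilage markers summed to 22.2 to 24.7 CPM with 4-OHT and 14.9 to 16.6 CPM with ethanol, with Matn1 at 0. The part of these markers in the changes of the matrix genes was not tested.

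**Figure D2:**
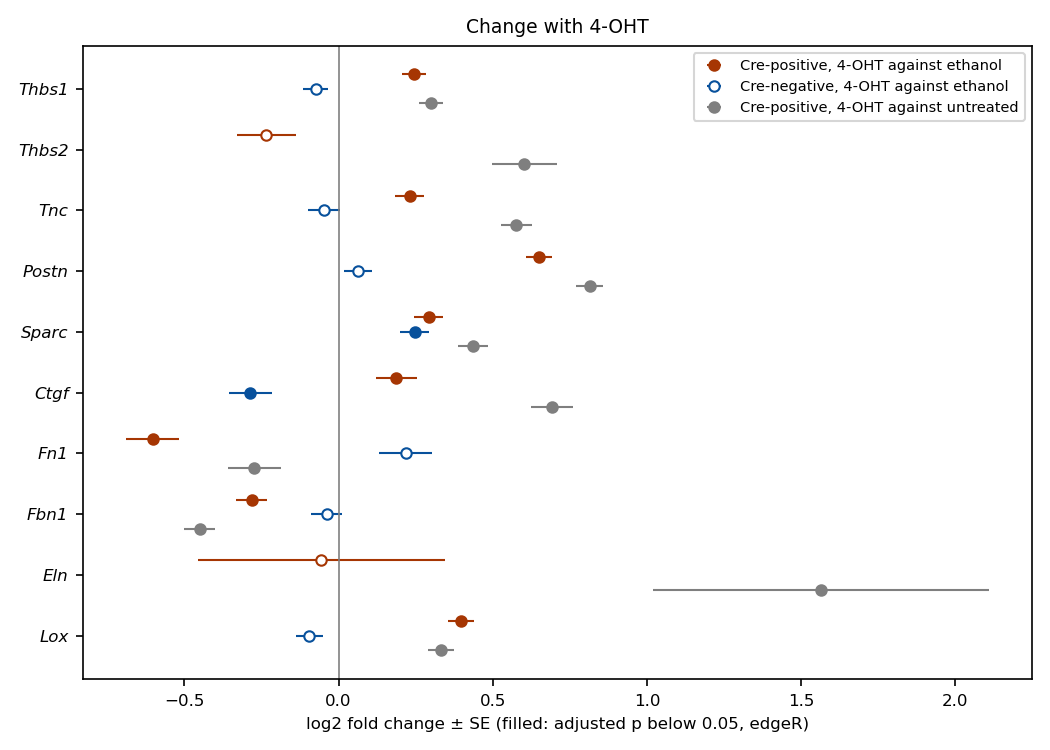
Log2 fold change ± SE with 4-OHT for each gene (x axis), in Cre-positive cells against ethanol and against untreated and in Cre-negative cells against ethanol; filled points had an adjusted p below 0.05. Postn and Fn1 lie furthest from 0, on opposite sides, among the Cre-positive points against ethanol, and Cre-negative points are left out for Thbs2 and Eln, whose counts there are too low.

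Postn encodes periostin, a matricellular protein that binds integrins and helps collagen to cross-link (chromosome 3, 54361109 to 54391037, plus strand). In Cre-positive cells it stood at 1258 and 1139 CPM with 4-OHT, 775.3 and 752.6 CPM with ethanol, and 669.3 and 694.6 CPM untreated. In Cre-negative cells it stood at 168.4 and 170.6 CPM with 4-OHT, 164.3 and 160.3 CPM with ethanol, and 33.6 and 31.3 CPM untreated. Both 4-OHT libraries of Cre-positive cells were above all 10 others, and the 3 treatments did not overlap there. Against ethanol Postn rose by 0.65 on the log2 scale (SE 0.043, adjusted p = 4.19e-10) in Cre-positive cells. In Cre-negative cells the log2 difference was 0.06 (adjusted p = 0.488), and the effects differed between the cell lines by 0.59 (SE 0.0631, adjusted p = 9.01e-07). Compared with no treatment, the log2 fold change in Cre-positive cells was 0.81 (SE 0.0433, adjusted p = 9.43e-12).

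Thbs1 (chromosome 2, 118111876 to 118127133, plus strand) was the gene with the most counts among the 10. It stood at 12100 and 12020 CPM in Cre-positive cells with 4-OHT, 9697 and 10670 CPM with ethanol, and 9838 and 9761 CPM untreated. Cre-negative libraries lay between 4753 and 5138 CPM. A single gene thus took 1.18% of all counts in the Cre-positive 4-OHT libraries. Thbs1 rose against ethanol (log2 0.24, SE 0.0394, adjusted p = 4.77e-05). Library 3 of the ethanol pair was the lower one, and without it the log2 fold change was 0.15 (adjusted p = 0.00205). In Cre-negative cells the difference was -0.07 (adjusted p = 0.306), and the effects of 4-OHT differed by 0.32 (SE 0.0557, adjusted p = 0.000208). Thbs1 was also higher than in untreated Cre-positive cells, by 0.30 (SE 0.0394, adjusted p = 3.35e-06).

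Thbs2, for thrombospondin 2, the paralog known for its part in collagen fibril assembly and in restraining vessel growth (chromosome 17, 14665500 to 14694235, minus strand), passed the filter on low counts only through the Cre-positive groups. In Cre-positive cells it stood at 23.3 and 18.6 CPM with 4-OHT, 24.2 and 25.3 CPM with ethanol, and 12.7 and 15.2 CPM untreated, from 309 to 824 counts per library. Each Cre-negative library held 1 to 8 counts, 22 in all 6 together, so no fold change is given among them. The 4-OHT libraries were below the ethanol libraries and above the untreated ones. The log2 difference from ethanol was -0.23 (SE 0.0947, adjusted p = 0.057), which did not pass. It passed without library 11 (-0.41, adjusted p = 0.00616), with relative log expression scaling (adjusted p = 0.048), with no filter on low counts (adjusted p = 0.0278) and when only the compared libraries were fitted (adjusted p = 0.0403). It was -0.085 without library 12 (adjusted p = 0.571), and the adjusted p was 0.219 in DESeq2, 0.0607 without library 3 and 0.227 without library 4. Against untreated cells Thbs2 was higher with 4-OHT (log2 0.60, SE 0.105, adjusted p = 9.81e-05). The sign against ethanol turned when both control groups formed 1 reference (0.18, adjusted p = 0.0876).

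Tnc encodes tenascin C, a large hexameric glycoprotein of wound beds and embryonic mesenchyme that modulates adhesion to fibronectin (chromosome 4, 63959785 to 64047015, minus strand). In Cre-positive cells it stood at 305.7 and 278.6 CPM with 4-OHT, 244.6 and 253.7 CPM with ethanol, and 198.1 and 193.8 CPM untreated. Cre-negative cells held it at 120.5 and 134.4 CPM with 4-OHT, 134.7 and 129.3 CPM with ethanol, and 68.7 and 72.0 CPM untreated. The 3 treatments did not overlap in Cre-positive cells, while 4-OHT and ethanol overlapped in Cre-negative cells. Against ethanol Tnc rose in Cre-positive cells by 0.23 (log2, SE 0.0483, adjusted p = 0.000726). With ethanol and untreated as 1 reference it was 0.40, and against untreated alone 0.58 (SE 0.0493, adjusted p = 8.52e-09). In Cre-negative cells the difference was -0.05 (adjusted p = 0.675). The effects of 4-OHT differed by 0.28 (SE 0.0709, adjusted p = 0.00558), which did not hold without library 5 (0.19, adjusted p = 0.0586).

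Sparc encodes a calcium- and collagen-binding matricellular protein also called osteonectin (chromosome 11, 55394500 to 55423183, minus strand). It stood at 1280 and 1372 CPM in Cre-positive cells with 4-OHT, 1032 and 1133 CPM with ethanol, and 996.6 and 963.2 CPM untreated. Cre-negative levels were 695.5 and 634.4 CPM with 4-OHT, 552.6 and 568.0 CPM with ethanol, and 614.3 and 612.9 CPM untreated. The 4-OHT libraries were above the ethanol libraries in both cell lines. Sparc rose with 4-OHT against ethanol by 0.29 in Cre-positive cells (log2, SE 0.0474, adjusted p = 5.05e-05) and by 0.25 in Cre-negative cells (SE 0.0481, adjusted p = 0.00334). The test of the difference between these effects gave 0.05 (SE 0.0675, adjusted p = 0.659). The Cre-negative call was lost without library 5 (0.17, adjusted p = 0.139) and without library 9 (0.21, adjusted p = 0.0696). Sparc was 0.44 above untreated Cre-positive cells (SE 0.0476, adjusted p = 2.66e-07).

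Ctgf encodes connective tissue growth factor, now also called CCN2, a cysteine-rich secreted protein that binds integrins and growth factors and is a well-known target of YAP and TAZ (chromosome 10, 24595442 to 24598683, plus strand). In Cre-positive cells it stood at 635.0 and 606.4 CPM with 4-OHT, 532.6 and 557.4 CPM with ethanol, and 410.7 and 357.4 CPM untreated. In Cre-negative cells it stood at 209.2 and 228.4 CPM with 4-OHT, 292.7 and 241.6 CPM with ethanol, and 200.0 and 215.4 CPM untreated. The 4-OHT libraries were the highest of the Cre-positive cells and lay below the ethanol libraries in Cre-negative cells. Against ethanol Ctgf rose in Cre-positive cells (log2 0.19, SE 0.0675, adjusted p = 0.0329) and fell in Cre-negative cells (log2 -0.29, SE 0.0705, adjusted p = 0.0174). Neither call held in every alternative. The Cre-positive call was lost in DESeq2 (0.17, adjusted p = 0.247) and without library 11 (0.15, adjusted p = 0.185), library 3 (0.13, adjusted p = 0.232) or library 4 (0.22, adjusted p = 0.0512). The Cre-negative call was lost in DESeq2 (adjusted p = 0.0977) and without library 5 (-0.23, adjusted p = 0.189) or library 9 (-0.15, adjusted p = 0.27). The difference between the effects was 0.47 (SE 0.0976, adjusted p = 0.000995) and passed in every alternative run. Ctgf was 0.69 above untreated Cre-positive cells (SE 0.0685, adjusted p = 7.04e-08), and by 0.44 with ethanol and untreated as 1 reference.

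Fn1 encodes fibronectin, the glycoprotein whose integrin-driven fibrils scaffold the early matrix (chromosome 1, 71585520 to 71653200, minus strand). It stood at 888.9 and 984.2 CPM in Cre-positive cells with 4-OHT, 1256 and 1588 CPM with ethanol, and 1092 and 1171 CPM untreated. In Cre-negative cells it stood at 1751 and 1795 CPM with 4-OHT, 1627 and 1421 CPM with ethanol, and 1306 and 1583 CPM untreated. The Cre-positive 4-OHT libraries were the lowest of the 12 and the Cre-negative 4-OHT libraries the highest. Against ethanol Fn1 fell by 0.60 on the log2 scale in Cre-positive cells (SE 0.0862, adjusted p = 1.22e-05). In Cre-negative cells the difference was 0.22 (SE 0.0858, adjusted p = 0.146), which passed with no filter on low counts (0.21, adjusted p = 5.52e-06) and when only the compared libraries were fitted (0.22, adjusted p = 0.00205). The effects differed by -0.82 (SE 0.122, adjusted p = 3.61e-05). Against untreated Cre-positive cells Fn1 was lower (log2 -0.27, SE 0.0863, adjusted p = 0.0153). That call was lost in DESeq2 (adjusted p = 0.152) and without library 11 (-0.20, adjusted p = 0.152) or library 8 (-0.24, adjusted p = 0.102).

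Fbn1 encodes fibrillin 1, the main protein of microfibrils, which carry elastin and hold latent TGF-beta in the matrix (chromosome 2, 125300594 to 125507993, minus strand). In Cre-positive cells it stood at 484.8 and 451.6 CPM with 4-OHT, 551.3 and 586.9 CPM with ethanol, and 616.0 and 663.4 CPM untreated. Cre-negative levels were 340.6 and 367.4 CPM with 4-OHT, 378.9 and 348.9 CPM with ethanol, and 415.0 and 429.2 CPM untreated. The 3 treatments did not overlap in Cre-positive cells, with 4-OHT the lowest. Against ethanol Fbn1 fell in Cre-positive cells (log2 -0.28, SE 0.05, adjusted p = 0.000135), with a Cre-negative difference of -0.04 (adjusted p = 0.737). The effects differed by -0.24 (SE 0.0712, adjusted p = 0.0142), a call that was lost without library 6 (-0.20, adjusted p = 0.0794), library 10 (-0.20, adjusted p = 0.0823), library 12 (-0.19, adjusted p = 0.081) or library 4 (-0.20, adjusted p = 0.0663). Against untreated Cre-positive cells Fbn1 was lower (log2 -0.45, SE 0.0501, adjusted p = 3.54e-07).

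Eln, for elastin, the stretchable core of elastic fibres (chromosome 5, 134702593 to 134747323, minus strand), was near the limit of counting. As nothing used here tells whether counting took strand into account, reads of Eln and of Gm30003, and likewise of Lox and its antisense gene, cannot be told apart. Cre-positive libraries held 4 to 25 counts each, and the 6 Cre-negative libraries held 4 counts together. In Cre-positive cells it stood at 0.708 and 0.599 CPM with 4-OHT, 0.516 and 0.838 CPM with ethanol, and 0.157 and 0.295 CPM untreated. The 4-OHT libraries lay inside the range of the ethanol libraries (log2 -0.06, SE 0.401, adjusted p = 0.932). Against untreated cells the log2 difference with 4-OHT was 1.57 (SE 0.544). Eln passed the filter only through the Cre-positive 4-OHT and ethanol groups, so a rise from untreated was favoured in advance. Its call there is no support for a rise. The call was lost when any of the 4 libraries was left out: 1.43 without library 11, 1.67 without library 12, 1.13 without library 7 and 2.02 without library 8.

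Lox encodes lysyl oxidase, the copper enzyme that starts the cross-linking of collagen and elastin (chromosome 18, 52516067 to 52529867, minus strand). It stood at 1742 and 1686 CPM in Cre-positive cells with 4-OHT, 1288 and 1315 CPM with ethanol, and 1311 and 1411 CPM untreated. In Cre-negative cells it stood at 769.9 and 795.1 CPM with 4-OHT, 869.1 and 802.9 CPM with ethanol, and 584.3 and 610.1 CPM untreated. The Cre-positive 4-OHT libraries were above all 10 others, and every Cre-positive library was above every Cre-negative one. Lox rose against ethanol in Cre-positive cells (log2 0.40, SE 0.043, adjusted p = 3.56e-07), while the Cre-negative difference was -0.10 (adjusted p = 0.219). The effects differed by 0.49 (SE 0.061, adjusted p = 5.02e-06). Lox was 0.33 above untreated Cre-positive cells (SE 0.043, adjusted p = 2.68e-06).

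**Figure D3:**
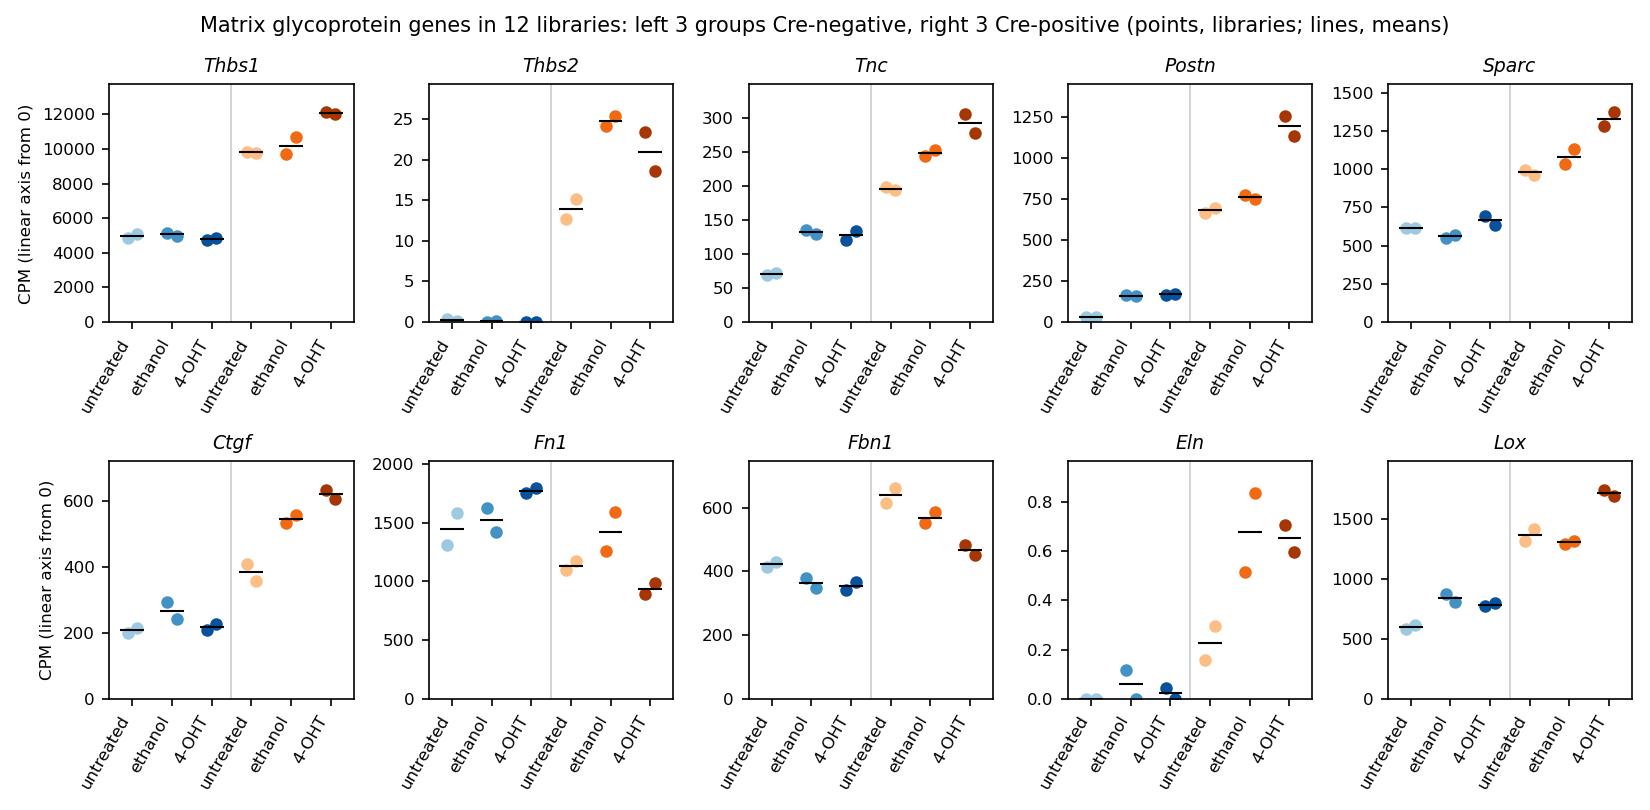
Level of each gene in every library (CPM, linear axis from 0; points are libraries, horizontal lines are means of 2), with Cre-negative groups to the left of the grey line and Cre-positive groups to the right. Cre-positive libraries lie above all Cre-negative ones for 9 genes, a split that the filter favoured for Thbs2 and Eln. The share of all genes that split this way was not counted. For Fn1 the Cre-positive 4-OHT libraries, at 888.9 and 984.2 CPM, are the lowest of all.

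Ethanol alone was compared with no treatment in each cell line, since it is the reference for 4-OHT. Untreated cells have no day in the labels, so ethanol and the time in culture cannot be told apart in these differences. In Cre-positive cells 6 of the 10 genes were higher with ethanol (Thbs2, Ctgf, Tnc, Fn1, Postn and Sparc) and 1 was lower (Fbn1), beside 8.11% and 6.84% of all genes. The median log2 fold change of the 10 genes was 0.247, against -0.00599 for all genes. It was 0.164 without Eln, which is near the limit of counting. These ethanol libraries are also the reference for 4-OHT above, so the values of the comparisons are not independent. Thbs2 changed most among the called genes, by 0.84 (log2, SE 0.105, adjusted p = 1.42e-05), followed by Ctgf at 0.50 (SE 0.0686, adjusted p = 3.69e-05) and Tnc at 0.35 (SE 0.0497, adjusted p = 6.15e-05). Fn1 was higher by 0.33 (adjusted p = 0.012), but this call was lost in DESeq2 (adjusted p = 0.114) and without library 4 (0.15, adjusted p = 0.308) or library 7 (0.28, adjusted p = 0.132). Postn was higher by 0.16 (adjusted p = 0.0126), and lost its call without library 3 (0.15, adjusted p = 0.0547) or library 7 (0.14, adjusted p = 0.122). For Sparc, higher by 0.14 (adjusted p = 0.0459), the call was lost without library 4 (0.08, adjusted p = 0.437), 7 (0.17, adjusted p = 0.0885) or 8 (0.12, adjusted p = 0.227), and with only the compared libraries fitted (adjusted p = 0.0777). Fbn1 was lower (-0.17, adjusted p = 0.0259), and lost its call without library 3 (-0.12, adjusted p = 0.197) or library 8 (-0.11, adjusted p = 0.288). Thbs1 (0.06, adjusted p = 0.403) and Lox (-0.06, adjusted p = 0.366) did not pass, although Thbs1 passed without library 3 (0.13, adjusted p = 0.0165). Eln, at 1.62 (SE 0.55, adjusted p = 0.0526), did not pass. It was kept by the filter only through the Cre-positive 4-OHT and ethanol groups, so a rise from untreated was favoured in advance. Without library 3 its difference was 1.92. It passed with only the compared libraries fitted (adjusted p = 0.0449) and with no filter on low counts (adjusted p = 0.0202). Smooth muscle and pericyte markers summed to 2990 to 3070 CPM in untreated Cre-positive cells, below the ethanol libraries, and their part in these differences was not tested.

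In Cre-negative cells 4 genes were higher with ethanol than untreated (Postn, Tnc, Lox and Ctgf) and 1 was lower (Fbn1), beside 12.5% and 12.0% of all genes. Postn had the largest fold change given here for any of the 10 genes in a treatment comparison, from 33.6 and 31.3 CPM untreated to 164.3 and 160.3 CPM with ethanol (log2 2.33, SE 0.0539, adjusted p = 1.84e-17). Tnc rose by 0.91 (SE 0.0546, adjusted p = 7.81e-11) and Lox by 0.48 (SE 0.0436, adjusted p = 3.46e-08). Ctgf rose by 0.36 (SE 0.0707, adjusted p = 0.000641), and by 0.23 without library 9 (adjusted p = 0.0289). Fbn1 was lower (-0.21, adjusted p = 0.00331), a call lost without library 10 (-0.15, adjusted p = 0.107) or library 2 (-0.18, adjusted p = 0.0519). Sparc, at -0.13 (adjusted p = 0.0521), passed with only the compared libraries fitted (adjusted p = 0.0106) and with no filter on low counts (adjusted p = 0.0162). Fn1 (0.08, adjusted p = 0.571) and Thbs1 (0.03, adjusted p = 0.617) did not pass. Thbs2 and Eln had too few counts for a fold change. The smooth muscle and pericyte sum was 904 to 923 CPM untreated and 1230 to 1310 CPM with ethanol in these cells, and its part was not tested.

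The change from untreated to ethanol, which holds any effect of the time in culture, was tested for a difference between the cell lines. It was lower in Cre-positive cells for Postn (log2 -2.16, SE 0.0692, adjusted p = 1.32e-14), Tnc (-0.56, SE 0.0738, adjusted p = 2.36e-05) and Lox (-0.55, SE 0.0612, adjusted p = 3.57e-06). It was higher for Sparc (0.27, SE 0.0677, adjusted p = 0.00808). These are 3 lower and 1 higher of the 10 genes, beside 7.98% and 8.32% of all genes. For Postn, Tnc and Lox the untreated level in Cre-negative cells was below the level in any other group. The difference was 0.25 for Fn1 (adjusted p = 0.176) and 0.14 for Ctgf (adjusted p = 0.365). Fn1 passed without library 1 (0.38, adjusted p = 0.0431), without library 3 (0.41, adjusted p = 0.0101) and with no filter on low counts (adjusted p = 4.37e-05), and Ctgf passed without library 9 (0.28, adjusted p = 0.0484).

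**Figure D4:**
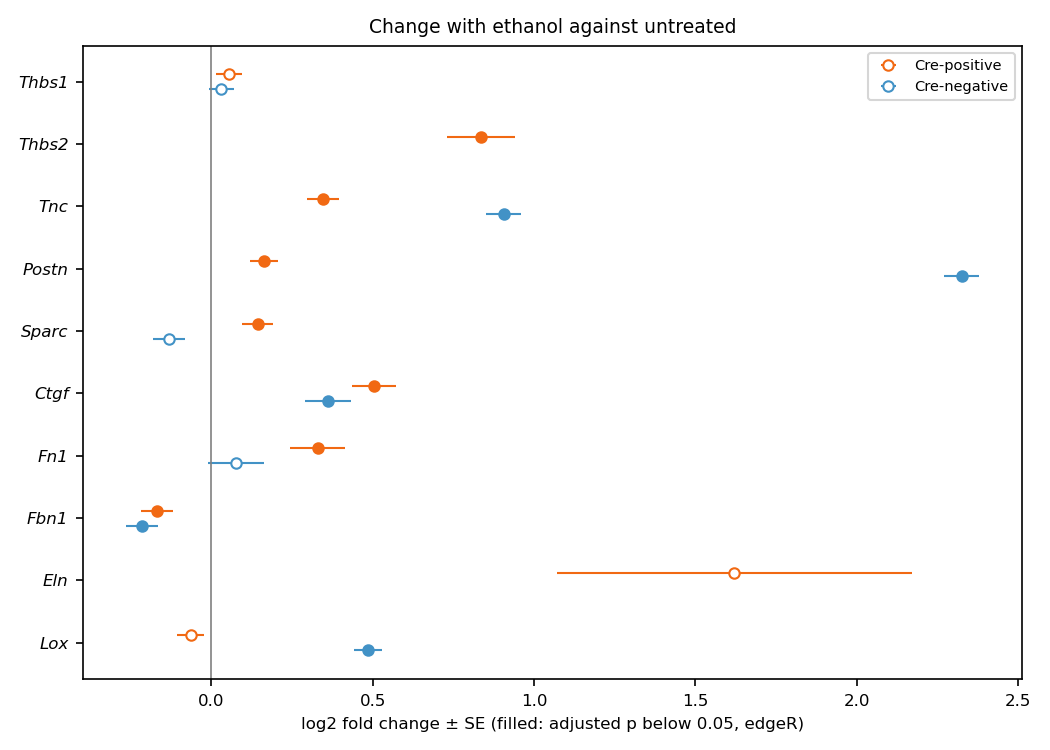
Log2 fold change ± SE with ethanol against untreated for each gene (x axis), in Cre-positive and Cre-negative cells; filled points had an adjusted p below 0.05. Postn in Cre-negative cells, at 2.33, stands far to the right, and its Cre-positive value is 0.16; Cre-negative points for Thbs2 and Eln are left out because their counts are too low.

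Untreated Cre-positive cells differed from untreated Cre-negative cells in the 8 genes other than Thbs2 and Eln, with 7 higher and Fn1 lower, beside 24.4% called higher and 24.6% called lower of all genes. Thbs2 passed the filter only through the Cre-positive groups, so a difference was favoured in advance. Eln passed it only through the treated Cre-positive groups, and had 4 and 6 counts in the untreated Cre-positive libraries. The values of both genes are given with no test. Thbs2 stood at 12.7 and 15.2 CPM in untreated Cre-positive cells and at 0.353 and 0.179 CPM, from 8 and 5 counts, in untreated Cre-negative cells. The log2 difference was 4.40 for Postn (SE 0.0543, adjusted p = 2.28e-23). Tnc (1.48), Lox (1.19), Thbs1 (0.99), Ctgf (0.89), Sparc (0.68) and Fbn1 (0.60) were higher by less, with adjusted p from 1.02e-15 to 1.66e-09. Eln had 10 counts in the untreated Cre-positive libraries and 0 in the untreated Cre-negative ones. With 3 counts over the Cre-negative group as a floor, the ratio is 3.68-fold. It takes the 10 counts as exact, so it is no firm lower limit. Fn1 was the exception, at 1092 and 1171 CPM in Cre-positive and 1306 and 1583 CPM in Cre-negative cells (log2 -0.35, SE 0.0862, adjusted p = 0.00174). Without library 2 its difference was -0.21 (adjusted p = 0.0841). The labels do not say whether the cell lines came from littermates, so the Cre, the embryo and the immortalised line cannot be told apart. Adipocyte and cartilage markers also differed, at 14.1 to 16.6 CPM in untreated Cre-positive and 117 to 125 CPM in untreated Cre-negative libraries (0 of 5 tested higher, 4 lower). Smooth muscle and pericyte markers summed to 2990 to 3070 and 904 to 923 CPM (4 of 6 higher, 1 lower), and 9 of 11 fibroblast markers tested were higher and 1 lower, with a median log2 of 0.962. The part of these markers in the difference was not tested.

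Over the 6 groups, mean log2 CPM ranged widely for Thbs2 (7.60 from the lowest to the highest group), Postn (5.20) and Eln (3.32). The lowest groups of Thbs2 (1 and 2 counts) and Eln (0 counts) were near the limit of counting, so these 2 ranges are imprecise. Mean log2 CPM ranged over 2.05 for Tnc, 1.58 for Ctgf, 1.52 for Lox, 1.33 for Thbs1 and 1.24 for Sparc, and least for Fn1 (0.923) and Fbn1 (0.854). Genes with the most similar pattern over the 12 libraries were found for the first group of genes by the root mean square difference of centred log2 CPM. For Postn these were Plxnb1 (0.389), Mfap5 (0.425) and Inhbb (0.476), among 10834 genes ranked. For Thbs2 they were Rgs16 (0.457), BC034090 (0.478) and Aig1 (0.583), with few counts behind its Cre-negative values. For Eln they were Fos (0.387), Nr4a1 (0.433) and Hlf (0.454), a pattern that rests on few counts. The 12 libraries come from 2 cell lines, so these distances hold the difference between the lines as well as the treatments.

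Genes close to the 10 were followed in 7 lists, first for 4-OHT against ethanol where the Cre was present. Of all genes tested, 21.1% were called higher and 17.2% lower in that comparison. For the difference between cell lines the shares were 14.5% and 13.8%, and for ethanol in Cre-positive cells 8.11% and 6.84%. The counts of every list are to be read beside these shares. Among relatives of the 10 genes (other thrombospondins, tenascins, SPARC and CCN family members and lysyl oxidase-like enzymes), 8 of 17 tested were higher and 1 lower, with a median log2 of 0.268. Tnn, for tenascin N, stood at 42.35 CPM with 4-OHT and 14.17 CPM with ethanol (means; SD 3.96 and 0.196) and rose by 1.58 (adjusted p = 8.4e-12). Tnxb, for tenascin X, rose by 0.67 (adjusted p = 0.0296), Smoc1, a SPARC relative, by 0.65 (adjusted p = 0.000118) and Wisp2, a CCN family gene, by 0.48 (adjusted p = 1.75e-08). The effect of 4-OHT was higher in Cre-positive than in Cre-negative cells for 8 relatives and lower for 1, with Tnn at 1.76, Nov, another CCN family gene, at 0.83, Smoc1 at 0.83 and Wisp2 at 0.71. Part of this lay in Cre-negative cells, where 4-OHT gave 1 higher and 6 lower relatives, beside 3.33% and 2.65% of all genes. Nov fell by 0.56 in Cre-negative cells and rose by 0.27 in Cre-positive cells. Wisp2 fell by 0.24 in Cre-negative cells, while Tnn and Smoc1 did not pass in them. With ethanol against untreated the balance was the other way, with 2 higher and 7 lower. The largest falls there were in Comp, for cartilage oligomeric matrix protein (-1.25), Tnxb (-1.01), Wisp2 (-0.51) and Tgfbi, a periostin relative (-0.32).

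Among genes for microfibril and elastic fibre assembly, 8 of 18 tested were higher and 4 lower, with a median of 0.157. Mfap5 (1.05, adjusted p = 2.12e-09) and Mfap4 (0.97, adjusted p = 0.00011), both for microfibril-associated proteins, rose, as did Fbln5 (0.50, adjusted p = 9.31e-10), whose product fibulin 5 guides elastin onto microfibrils. Ltbp4, for a latent TGF-beta binding protein, fell (-0.58, adjusted p = 2.36e-05), like Fbn1. The effect of 4-OHT was higher in Cre-positive cells for 7 of the 18 genes and lower for 5. Mfap5 differed by 1.05 between the cell lines, Ltbp4 by -0.70 and Adamtsl4 by -0.70. Mfap4 also passed that test (adjusted p = 0.019), but was at 0.0386 and 0.146 CPM (means) in the Cre-negative groups. With ethanol 5 were higher and 2 lower. Mfap4 (1.21), Thsd4 (0.93) and Ltbp4 (0.56) were higher, and Emilin1 was lower (-0.32).

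Receptors for these proteins moved in both directions: 10 of 21 were higher with 4-OHT and 7 lower (median 0.182). Integrin alpha subunits led the higher genes, with Itga9, part of a tenascin C receptor, at 0.70 (adjusted p = 0.000125), Itga8, whose product binds fibronectin and tenascin C with integrin beta 1, at 0.52 (adjusted p = 1e-05) and Itga11, a collagen receptor subunit, at 0.46 (adjusted p = 0.000832). Itga2 had the largest fold change (2.17, adjusted p = 4.38e-05), from 0.352 to 1.60 CPM (means). The effect of 4-OHT was higher in Cre-positive cells for 8 receptors, among them Itga2 (1.88), Itga8 (1.29), Itga9 (1.06) and Itgb3 (0.77), and lower for 5. In Cre-negative cells 4-OHT gave 0 higher and 3 lower receptors, among them Itga8 (-0.77), beside 3.33% and 2.65% of all genes. Itgb3 passed neither in Cre-positive cells (0.19) nor in Cre-negative cells (-0.58). Ethanol gave 5 higher and 3 lower, with Itga8 at 0.89, Sdc4 at 0.35, Itga11 at -0.45 and Itga3 at -0.33.

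In the TGF-beta pathway 7 of 20 genes were higher with 4-OHT and 5 lower (median 0.0799), beside 21.1% and 17.2% of all genes. The ligand gene Tgfb2 rose by 0.53 (adjusted p = 5.91e-06), the inhibitory Smad6 by 0.48 (adjusted p = 6.9e-07) and the repressor Ski by 0.20 (adjusted p = 0.00723). Ltbp1, which holds the latent ligand in the matrix and is in the microfibril list too, fell (-0.36, adjusted p = 1.09e-07). The effect differed between cell lines for 4 genes upward, with Smad6 at 0.51, Tgfb2 at 0.45 and Smad7 at 0.37 among them, and for 2 downward, with Ltbp1 at -0.41. These are 4 and 2 of 20 genes, beside 14.5% and 13.8% of all genes. With ethanol 9 genes were higher and 0 lower, among them Smad6 (0.34), Tgfbr2 (0.25) and Pmepa1 (0.21).

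Of 23 YAP and TAZ factors and targets, a list that holds Ctgf itself, 8 were higher with 4-OHT and 6 lower (median -0.0059). Gadd45b (0.66, adjusted p = 1.6e-09) and Vgll4 (0.45, adjusted p = 2.28e-07), a TEAD cofactor that competes with YAP, rose. Tead1, for a DNA-binding partner of YAP, fell (-0.61, adjusted p = 0.000158), as did the receptor tyrosine kinase gene Axl (-0.45, adjusted p = 1.18e-08). Between the cell lines the effect was higher for 7, with Gadd45b at 0.82 and Vgll4 at 0.52, and lower for 5, with Tead1 at -0.88. Ethanol gave 15 higher genes and 1 lower (median 0.199), beside 8.11% and 6.84% of all genes. F3, for tissue factor, was at 0.54, Ctgf at 0.50 and Ajuba at 0.38, and Ankrd1 was the lower gene (-0.57).

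Basement membrane glycoprotein genes were split, with 5 of 13 higher with 4-OHT and 6 lower (median -0.124). Lama4, a laminin subunit of mesenchymal cells, rose by 0.88 (adjusted p = 8.1e-10) from 51.14 to 93.76 CPM, and Hspg2, for perlecan, fell (-0.66, adjusted p = 7.83e-05). Lamb3 (2.06) and Lama2 (1.21) also rose, from means of 0.0704 and 0.313 CPM with ethanol, so the rise of Lamb3 starts near the limit of counting. The effect was higher in Cre-positive cells for 2 of these genes, Lama3 at 2.35 and Lamb3 at 2.07 (SE 0.762, adjusted p = 0.0476 by edgeR). It was lower for 4, among them Hspg2 and Lamc1 (-0.49). Lama3 did not pass in Cre-positive cells (-0.12, adjusted p = 0.532), and its Cre-negative means were 0.538 CPM with ethanol and 0.0993 CPM with 4-OHT. With ethanol 6 were higher, among them Lama3 (0.79), Agrn (0.46) and Lamc1 (0.36).

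Among 13 small and large proteoglycan genes tested, 6 were higher with 4-OHT and 2 lower (median 0.159). Vcan, for versican, stood at 193.3 CPM with 4-OHT and 124.5 CPM with ethanol (0.64, adjusted p = 3.11e-09), and at 2.67 CPM or less in every Cre-negative group mean. Fmod, for fibromodulin, rose by 1.08 (adjusted p = 0.00013). Dcn (2.13) and Gpc3 (1.61) rose too, from means of 0.0871 and 0.261 CPM. Gpc3, 1 of the 6 higher genes, passed the filter only through Cre-positive cells with 4-OHT. Its rise was thus favoured in advance. The effect was higher in Cre-positive cells for 4, namely Dcn (2.21), Ogn (0.55), Aspn (0.54) and Omd (0.33), and lower for 1. In Cre-negative cells 4-OHT gave 0 higher and 3 lower genes, beside 3.33% and 2.65% of all genes. The 3 were Ogn (-0.39), Aspn (-0.33) and Omd (-0.33). Ogn and Aspn rose in Cre-positive cells by 0.16 and 0.21, and Omd did not pass in Cre-positive cells (-0.0061). With ethanol 3 were higher and 2 lower, with Gpc4 at 0.34, Ogn at 0.23, Bgn at 0.21 and Gpc1 at -0.20. No list was tested as a set.

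**Figure D5:**
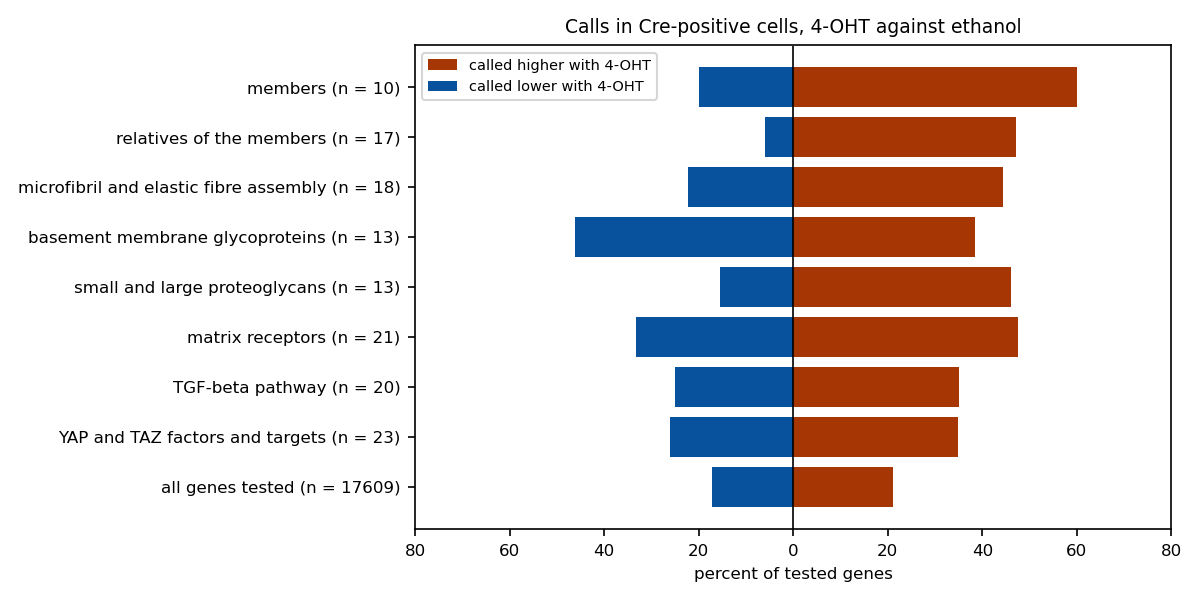
Percent of tested genes called higher (right) and lower (left) with 4-OHT against ethanol in Cre-positive cells, for the 10 matrix glycoprotein genes, the 7 lists of related genes and all 17609 genes tested (21.1% and 17.2%). The relatives of the 10 genes have 1 lower gene among 17, and basement membrane genes have more lower than higher ones.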

How the data were processed

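The authors deposited expected counts per gene, as whole numbers, for 12 libraries of ribosome-depleted total RNA. Trimming (cutadapt 1.11), alignment (STAR 2.5.2a) and estimation (RSEM 1.2.30) tools, edgeR and the GRCm38 build are named in the submitters' processing notes. Annotation, strand setting, filtering and rounding were not given in the sources used here. Totals limit precision most for Eln and, in Cre-negative cells, Thbs2.

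The analysis used edgeR 4.0.16 under R 4.3.3. Of 47517 genes, filterByExpr (minimum count 10) kept 17609. Scaling used trimmed means of M values. A single quasi-likelihood fit held all 12 libraries, with a mean for each group. Adjusted p-values come from 2-sided edgeR quasi-likelihood F tests of 8 comparisons, by Benjamini and Hochberg over all genes tested, with a threshold of 0.05. SE was taken from the F statistic. The code was tested on simulated data. Alternatives were DESeq2 1.42.0, relative log expression scaling, no filter, a fit to the compared libraries alone, each library left out in turn, and ethanol with untreated cells as 1 reference.

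The 10 genes, the lists, the rule for names and the tests were chosen with earlier results of these data known. Every one of the 10 genes is named, with both targets. From each list at most 4 genes are named that passed in the 4-OHT effect of Cre-positive cells, its difference between cell lines, or the ethanol effect, by largest fold change, and some genes that the rule picks are not reported here. Genes of like pattern had an average log2 CPM (prior count 2) of at least 1 and no predicted-gene symbol. Promoter windows are from RefSeq (GRCm38.p6), and coordinates are 1-based from GENCODE M21 on GRCm38. That annotation lists Ctgf as Ccn2.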

Additional observations from a re-analysis of the deposited data

Results flagged for a closer look

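Effects of 4-OHT against ethanol differed between Cre-positive and Cre-negative cells for 7 of the 10 genes, by the interaction test on the log2 scale. Of all genes tested, 14.5% were called higher and 13.8% lower by this test. The difference (Cre-positive minus Cre-negative) was 0.59 for Postn, 0.49 for Lox, 0.47 for Ctgf, 0.32 for Thbs1 and 0.28 for Tnc, and it was -0.82 for Fn1 and -0.24 for Fbn1. Effects of ethanol against no treatment differed between the cell lines by the same test for 4 genes, beside 8.32% called higher and 7.98% lower of all genes. The difference was -2.16 for Postn, -0.56 for Tnc, -0.55 for Lox and 0.27 for Sparc. Postn, Tnc and Lox were thus flagged in both tests, with opposite signs, and these tests share the ethanol libraries.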

How the results depend on the processing

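Of 75 results for single genes 52 were called, and 39 of those kept their direction and their side of the threshold in every alternative run. Eln was left out of the 75 wherever Cre-negative cells were compared, but Thbs2, at 1 to 8 counts in those libraries, was kept. The 52 hold the line difference of Thbs2 and the rise of Eln with 4-OHT from untreated. The filter favoured both in advance, so these 2 calls are no support. The others are named with their values beside the result. With ethanol and untreated as 1 reference, Eln (0.75) and Thbs2 (0.18) turned positive in the 4-OHT effect of Cre-positive cells. Leaving out 1 library turned the sign of uncalled values: 4-OHT in Cre-positive cells, Eln -0.37 to 0.34; 4-OHT in Cre-negative cells, Fbn1 -0.11 to 0.0092 and Tnc -0.14 to 0.018; difference of 4-OHT effects, Sparc -0.035 to 0.12; ethanol in Cre-positive cells, Thbs1 -0.0145 to 0.13; ethanol in Cre-negative cells, Fn1 -0.044 to 0.23; difference of ethanol effects, Fbn1 -0.017 to 0.098 and Thbs1 -0.047 to 0.088.

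Counts over all genes moved by more than 1.5 times in DESeq2 for 4-OHT in Cre-positive cells (3709 higher, 2179 in DESeq2), the difference of 4-OHT effects (2555 higher, 1519), ethanol in Cre-positive cells (1204 lower, 644) and the difference of ethanol effects (1406 lower, 785). With the compared libraries alone, 929 genes were higher with 4-OHT in Cre-negative cells, against 587. Among the 10 genes, counts moved for 4-OHT in Cre-negative cells (2 higher with the compared libraries alone or no filter, 0 lower in DESeq2), 4-OHT against untreated (1 lower in DESeq2), ethanol in Cre-negative cells (2 lower with the compared libraries alone or no filter) and the difference of ethanol effects (2 higher with the compared libraries alone or in DESeq2, 3 with no filter). For the difference of ethanol effects, Thbs2 was among the genes added in all 3 settings, with few counts in Cre-negative cells.

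With 1 library left out, genes called ran from 141 to 336 higher and 160 to 273 lower for 4-OHT in Cre-negative cells, 834 to 1410 higher and 561 to 1080 lower for ethanol in Cre-positive cells, 1237 to 1523 lower for ethanol in Cre-negative cells, and 858 to 1557 higher and 913 to 1520 lower for the difference of ethanol effects. Calls among the 10 genes ran from 0 to 1 higher and 0 to 1 lower for 4-OHT in Cre-negative cells, 1 to 2 lower for the difference of 4-OHT effects, 1 to 2 lower for 4-OHT against untreated, 3 to 7 higher and 0 to 1 lower for ethanol in Cre-positive cells, 0 to 1 lower for ethanol in Cre-negative cells, 0 to 1 lower for the cell line difference and 1 to 2 higher for the difference of ethanol effects. A library left alone in its group was assumed to vary like the others. The cause of these changes was not tested. No paired analysis was possible because the library numbers 1 to 12 are not shared between groups.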
